A study of Homo sapiens with 8 samples.

Results

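The DNAJ co-chaperones examined here were the protein-coding genes whose symbols are DNAJA, DNAJB or DNAJC followed by a number. Names were assigned through the RefSeq accession of each array probe, which gave 44 members with 57 probes among 19056 genes in all, and 12 of the members had more than 1 probe. The naming rule used no expression value, but earlier results of these data were known when the members were chosen. A549 cells, an established human lung carcinoma line, were exposed to EEDS, the ethanol extract of Descurainia sophia seeds, at 1.25, 5 or 20 μg/mL, or to helveticoside, a cardiac glycoside contained in that extract, at 3.75, 15 or 60 nM. Each series had its own vehicle control, so 8 arrays were made in 2 series of 4. RNA of 3 cultures was pooled for each array and each dose had 1 array. The treatment text of the labels, which describes a viability assay, gives 48 h of exposure, whereas the study's methods give a shorter time for the arrays. The question was whether helveticoside changes gene expression in the way that the whole extract does.

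DNAJ proteins carry a J domain, with which they bind HSP70 chaperones, stimulate their ATPase activity and pass unfolded client proteins to them. Class A members have a zinc finger beside the J domain, class B members lack it but keep a stretch rich in glycine and phenylalanine, and class C members share only the J domain. Different members place HSP70 activity in the cytosol, at the ribosome, in the endoplasmic reticulum, in mitochondria and at clathrin-coated vesicles. Some cytosolic members are known targets of the heat shock factors, and several of the endoplasmic reticulum are known to rise when unfolded proteins accumulate there.

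Levels are given as log2 of the quantile-normalized processed signal, and a ratio is the difference of that level from the series' own control. A level of one probe cannot be set against that of another. The median probe signal was 182 to 214 on the EEDS arrays and 223 to 278 on the helveticoside arrays, and the empty dark-corner spots read 34 to 36 and 118 to 141, so dim genes were harder to measure in the helveticoside series. No probe spot was saturated. The limit of 1.4 times the local background passed all 44 members, but the scanner software called only 36 of them well above background on all 8 arrays, 2 on some arrays and 6 on none. The 8 epithelial markers of A549 cells were well above background on every array, with a summed log2 signal of 19.1 to 20.2. Of the markers of other cells, CD3E, HBB, PECAM1, VWF and DCN were not well above background on any array, and the summed log2 signals were 9.59 to 11.9 for 5 blood markers, 7.10 to 7.87 for 3 endothelial markers and 9.56 to 10.2 for 4 markers of fibroblasts and muscle. Because the RNA was bulk RNA, a change in the share of cells and a change in the RNA per cell cannot be told apart. The agent and the series cannot be told apart either, so every difference between EEDS and helveticoside is also a difference between 2 sets of arrays.

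With 1 array per dose, no p-value can be given for a single dose. A dose trend was fitted with limma over the 8 arrays instead, as a slope per dose step in each series, with the spread of the arrays about both lines as the error (4 residual degrees of freedom). A trend was called at an adjusted p under 0.05 over all genes. By this measure 5 of 44 members rose and 2 fell with the EEDS dose, where 7.27% of all genes rose and 7.86% fell. With helveticoside, 3 members rose and 1 fell, beside 5.46% and 5.79% of all genes. All called members were well above background on the 8 arrays, and they were 13.9% (rising) and 5.56% (falling) of 36 such members for EEDS and 8.33% and 2.78% for helveticoside. Over all 11498 genes called well above background on each of the 8 arrays, 10.2% rose and 10.7% fell with EEDS and 7.57% rose and 7.63% fell with helveticoside. Since 1 of 36 members is 2.78%, these shares rest on 1 to 5 genes each, and the calls went in both directions. The members called with EEDS were DNAJB2, DNAJB9, DNAJB14, DNAJC3, DNAJC25, DNAJC14 and DNAJC30, and 4 of them, DNAJB2, DNAJB9, DNAJC25 and DNAJC14, were also called with helveticoside.

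**Figure D1:**
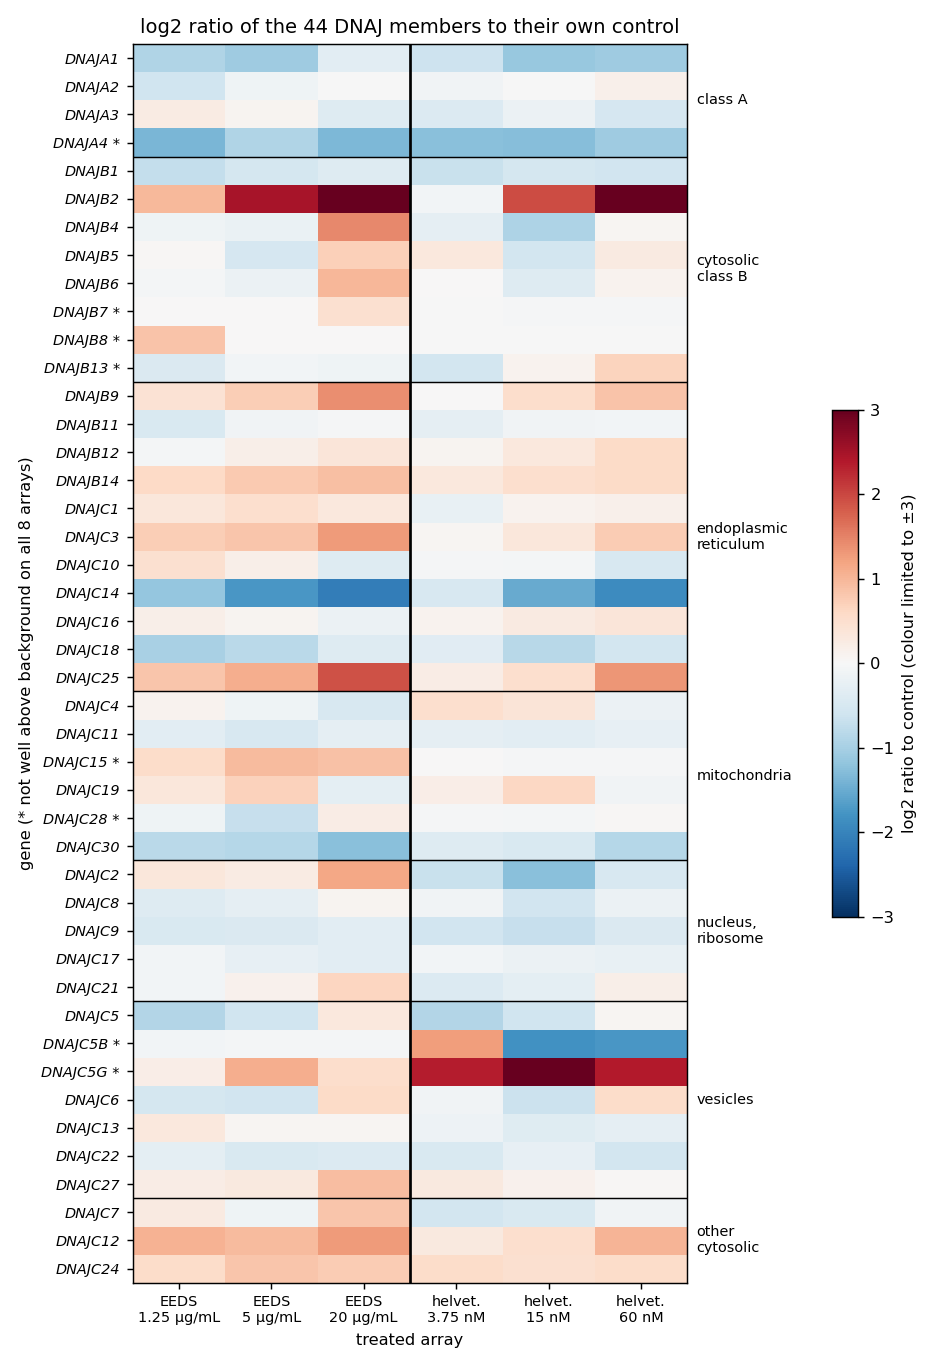
Log2 ratio of each of the 44 members (rows, grouped by role; an asterisk marks those not well above background on all 8 arrays) to its own vehicle control on the 6 treated arrays (columns; red is higher, blue is lower, colour limited to ±3). DNAJB2 is the reddest measured row in both series with 3.69 and 3.32 at the top doses, DNAJC14 the bluest with -2.08 and -1.88, and most other members stay pale.

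DNAJB2 changed most. It encodes a cytosolic class B protein, abundant in neurons, that binds ubiquitinated clients and directs them to the proteasome. Its log2 level was 11.98 on the EEDS control and 12.94, 14.46 and 15.67 at 1.25, 5 and 20 μg/mL, a step upward at every dose. On the helveticoside control it was 12.13, followed by 12.05, 14.08 and 15.44 at 3.75, 15 and 60 nM. By this probe, the lowest dose left it near the control and the other doses did not. The top doses were 12.9-fold and 9.96-fold above their controls. Of 11498 genes measured well above background throughout, DNAJB2 ranked 36th from the highest ratio at the top EEDS dose and 27th at the top helveticoside dose. The slope was 1.26 ± 0.19 per dose step (SE) with EEDS (adjusted p = 0.0189, limma) and 1.20 ± 0.19 with helveticoside (adjusted p = 0.0253, limma). A second probe for another transcript of DNAJB2 read 6.70, 7.91, 9.51 and 10.67 over the EEDS doses and 6.57, 7.07, 8.78 and 10.34 over the helveticoside doses. Both probes therefore gave a ratio of more than 3 at each top dose, 3.97 and 3.77 for the second. The second probe was above its control at the lowest helveticoside dose as well, with 7.07 against 6.57.

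The endoplasmic reticulum, the largest of the role groups, held most of the other called members. Of its 11 members, all well above background, 4 rose and 1 fell with EEDS, and 2 rose and 1 fell with helveticoside. Of the 11498 genes measured equally well, 10.2% rose and 10.7% fell with EEDS, and 7.57% rose and 7.63% fell with helveticoside. The median ratio of the 11 members at the top dose was 0.31 with EEDS and 0.36 with helveticoside, beside -0.01 and 0.02 for the 11498 genes. The range was wide, from -2.08 to 1.90 with EEDS and from -1.88 to 1.33 with helveticoside.

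DNAJB9 is a luminal co-chaperone of the HSP70 protein BiP that takes part in the disposal of misfolded proteins and holds the stress sensor IRE1 inactive. Its level rose along the EEDS doses from 11.37 to 11.81, 12.12 and 12.76. Over the helveticoside doses it went from 11.14 to 11.16, 11.66 and 12.01. The slopes were 0.45 ± 0.06 with EEDS (SE, adjusted p = 0.0167, limma) and 0.31 ± 0.06 with helveticoside (adjusted p = 0.0377, limma), and the top doses stood 2.61-fold and 1.82-fold above control.

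DNAJC3, a luminal co-chaperone of BiP that also inhibits eIF2α kinases such as PERK, was called with EEDS only. Its EEDS levels were 10.08 on the control and 10.81, 10.90 and 11.36 on the treated arrays (slope 0.39 ± 0.07, SE, adjusted p = 0.0275, limma). The helveticoside levels were 9.93, 9.99, 10.27 and 10.69 in order of dose, higher at each step, with a slope of 0.25 ± 0.07 that did not pass the threshold (adjusted p = 0.0828, limma). The slopes differed by -0.14 ± 0.10 (helveticoside minus EEDS, unadjusted p = 0.228, limma), which was not called.

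DNAJB14, a membrane protein of the endoplasmic reticulum that works with cytosolic HSP70 in degradation, had a smaller trend. It read 10.92, 11.51, 11.70 and 11.82 with EEDS (slope 0.29 ± 0.06, SE, adjusted p = 0.0395, limma) and 11.17, 11.48, 11.66 and 11.75 with helveticoside (slope 0.19 ± 0.06, adjusted p = 0.116, limma). Its levels were ordered by dose in both series, but no treated array reached 2-fold. DNAJB12, its close relative, had ratios of 0.37 and 0.57 at the top doses and was not called in either series (adjusted p = 0.142 and 0.0718, limma).

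DNAJC25, a membrane protein whose role is less studied, rose in both series. From a control level of 6.94 it reached 7.76, 8.02 and 8.84 with EEDS, and from 6.75 it reached 6.98, 7.26 and 8.08 with helveticoside. The top doses were 3.73-fold and 2.51-fold above control, and the slopes were 0.60 ± 0.09 (SE, adjusted p = 0.0199, limma) and 0.43 ± 0.09 (adjusted p = 0.0456, limma). The helveticoside call was lost in 9 of 14 alternatives, 4 of which had fewer arrays. A readthrough transcript joins DNAJC25 to the neighbouring gene GNG10, and the array cannot show which of the transcripts gave the signal.

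DNAJC14 went the other way. It encodes a membrane protein of the endoplasmic reticulum known for its part in the export of dopamine receptors. The EEDS arrays read 11.06 on the control and 9.89, 9.31 and 8.97 at rising dose, and the helveticoside arrays read 10.49, 10.02, 8.99 and 8.61. The level was lower at each step in both series and ended at 0.236 of control with EEDS and 0.271 with helveticoside. The slopes were -0.68 ± 0.10 (SE, adjusted p = 0.0194, limma) and -0.67 ± 0.10 (adjusted p = 0.0253, limma), and they differed by 0.01 ± 0.15. DNAJC14 had a second, dim probe that was not well above background at both ends of either series. With the mean of both probes in place of the brighter one, neither DNAJC14 trend was called.

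**Figure D2:**
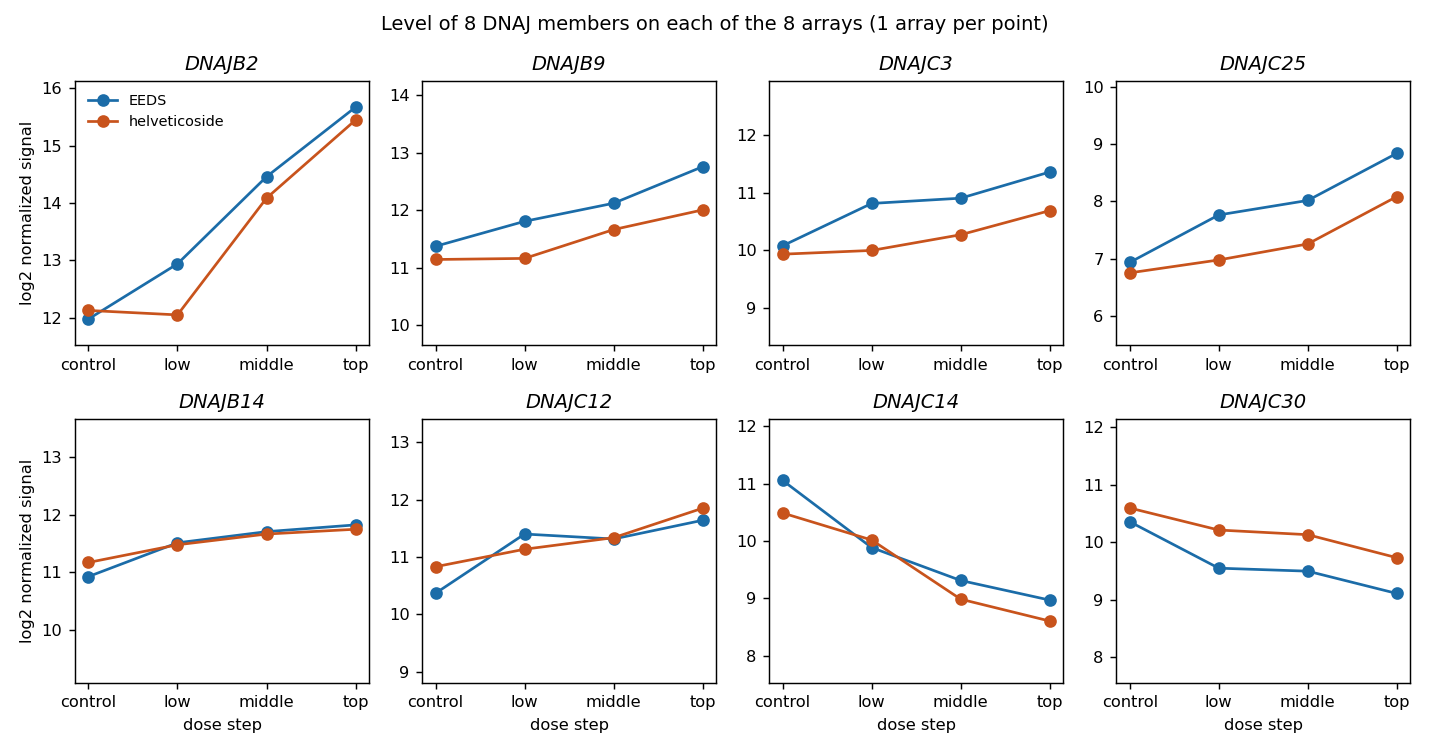
Log2 normalized signal (vertical axis, the same span in each panel but not the same origin) of 8 members against the dose step (horizontal axis; blue EEDS, orange helveticoside; 1 array per point, no error bar). DNAJB2 climbs from 11.98 and 12.13 to 15.67 and 15.44, DNAJC14 and DNAJC30 descend in both series, and DNAJB9, DNAJC3, DNAJC25 and DNAJB14 climb by smaller amounts.

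The 6 remaining members of the endoplasmic reticulum were not called in either series. DNAJB11, DNAJC1 and DNAJC10 belong to its lumen or membrane and also work with BiP, and DNAJC10 is a disulfide reductase as well. Their ratios at the top doses were -0.03 and -0.08 for DNAJB11, 0.31 and 0.16 for DNAJC1 and -0.38 and -0.47 for DNAJC10. DNAJC18 was under control on all 6 treated arrays, by 0.33 to 0.98 on the log2 scale. The members of this compartment that are partners of BiP thus had both called rises, in DNAJB9 and DNAJC3, and values near control.

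In mitochondria, DNAJC30 was called with EEDS and no member with helveticoside, where DNAJC30 alone had an unadjusted p under 0.05 (limma). DNAJC30, which lies near the respiratory chain and takes part in the repair of complex I, fell with EEDS from 10.36 to 9.55, 9.49 and 9.11 (slope -0.38 ± 0.08, SE, adjusted p = 0.0345, limma). It read 10.59, 10.21, 10.13 and 9.73 with helveticoside, a slope of -0.27 ± 0.08 that did not pass (adjusted p = 0.0884, limma). The second DNAJC30 probe gave larger differences, with 10.78, 8.95, 8.42 and 8.15 over the EEDS arrays and 10.56, 9.62, 8.45 and 7.59 over the helveticoside arrays. Its ratios at the top doses were -2.63 and -2.97, against -1.25 and -0.87 for the brighter probe, so the size of the DNAJC30 difference depended on the probe. By the brightest probe of each, the 5 mitochondrial members that were well above background on every array lay under control at both top doses, from -1.25 to -0.27 with EEDS and from -0.87 to -0.10 with helveticoside. A second probe of DNAJC11 gave 0.54 and 0.08. The 5 include DNAJA3, which is also a class A protein, DNAJC11 of the cristae-organizing complex and DNAJC19 of the protein import motor.

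The class A members and the cytosolic class B members include those best known from the heat shock response. None of the 4 class A members was called in either series (limma, 0 at an unadjusted p under 0.05), and of the 8 cytosolic and nuclear class B members only DNAJB2 was. The members discussed next were picked after their values were seen. DNAJA1, a general folding co-chaperone, read 13.37, 12.47, 12.29 and 13.04 with EEDS, lowest at the middle dose. With helveticoside it read 13.38, 12.76, 12.24 and 12.31, and stayed low at the top dose. DNAJB1, the main heat-inducible class B member, lay between 0.39 and 0.71 under control on the log2 scale on all 6 treated arrays.

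DNAJB4, a relative of DNAJB1 in muscle and other tissues, read 8.42, 8.28 and 8.21 on the EEDS control and the lower doses and 9.86 at 20 μg/mL. Its helveticoside levels were 8.65, 8.37, 7.71 and 8.71, so the top dose was back at the control level. DNAJB6, which keeps polyglutamine proteins from aggregating, read 13.27, 13.20, 13.09 and 14.26 with EEDS and 13.02, 13.02, 12.62 and 13.12 with helveticoside. With these probes both had their lowest level at the middle dose in each series, and neither EEDS trend was called (EEDS slopes 0.43 ± 0.24 and 0.29 ± 0.15, SE, adjusted p = 0.29 and 0.261, limma). A DNAJB6 probe for another transcript did not dip at the middle dose, with 9.48, 9.35, 10.08 and 10.12 with EEDS and 9.22, 9.17, 9.66 and 10.15 with helveticoside.

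From the middle to the top dose, 5 of 44 members rose more than 2-fold with EEDS, DNAJB2, DNAJB4, DNAJB5, DNAJB6 and DNAJC6, beside 5.42% of all genes. With helveticoside 3 members did, DNAJB2, DNAJB4 and DNAJC6, beside 4.92% of all genes. Of the 36 members well above background on all arrays, 25 were higher at the top than at the middle dose of EEDS, with a median difference of 0.20 against -0.03 over all such genes, and 26 were higher with helveticoside, with a median of 0.13 against 0.01. This step was looked at after the values were seen, it compares 1 array with 1 array, and it has no test. DNAJC6, the auxilin that strips clathrin from vesicles, was also lowest at the middle dose, with ratios of -0.53, -0.57 and 0.57 with EEDS and -0.11, -0.66 and 0.56 with helveticoside. DNAJC5, the cysteine string protein of synaptic vesicles, had ratios of -0.87, -0.59 and 0.32 with EEDS and -0.87, -0.61 and 0.06 with helveticoside. A second, dimmer DNAJC5 probe read 8.46, 8.16, 8.49 and 8.75 with EEDS and 8.73, 8.47, 8.81 and 8.86 with helveticoside. By that probe only the lowest dose of each series lay under control.

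**Figure D3:**
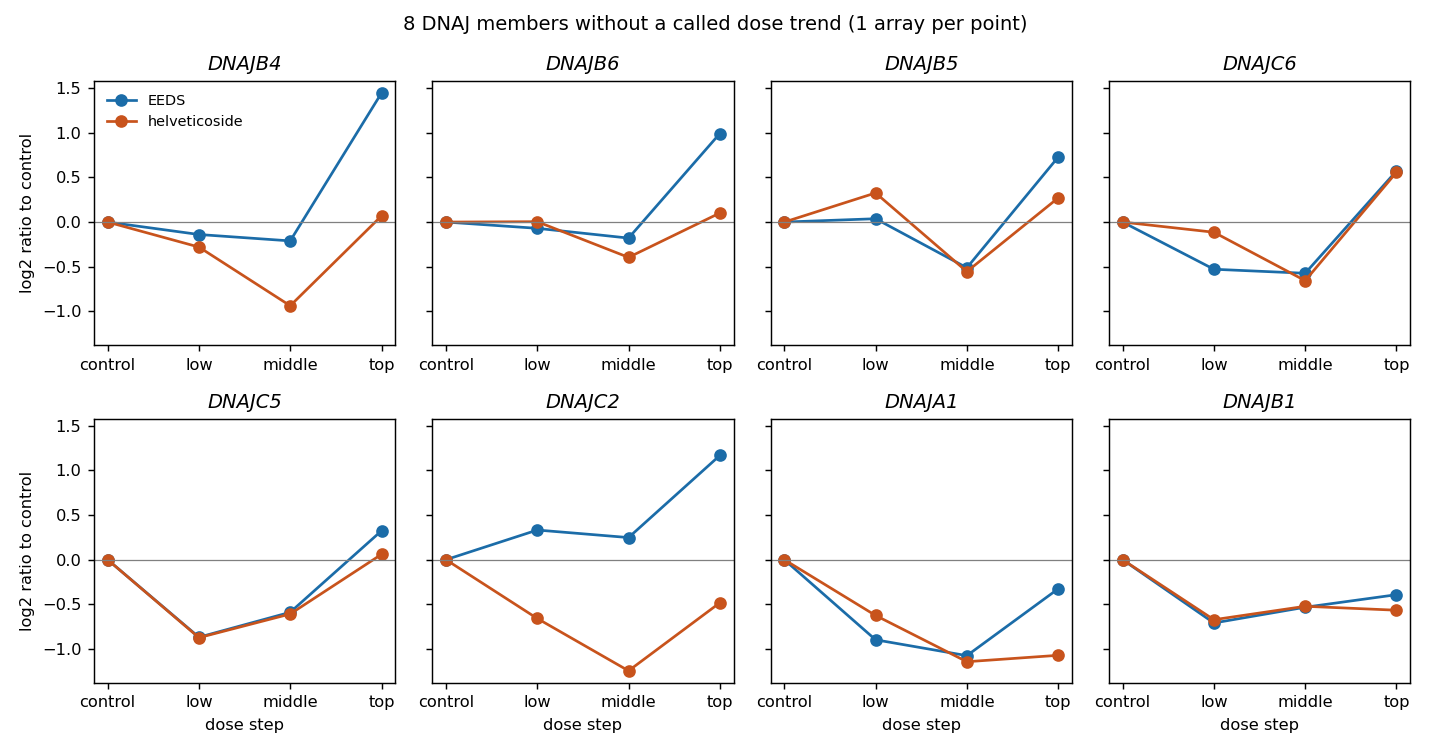
Log2 ratio to the series' own control (vertical axis) of 8 members without a called trend against the dose step (horizontal axis; blue EEDS, orange helveticoside; 1 array per point, no error bar), by the brightest probe of each. DNAJB4, DNAJB6, DNAJB5 and DNAJC6 have their lowest point at the middle dose and turn upward at the top dose, to 1.44 for DNAJB4 with EEDS, while DNAJB1 stays under 0 throughout.

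Heat shock factors bind repeats of the unit GAA and its complement TTC. The RefSeq promoter windows of GRCh38.p14, which run from 250 bases before to 50 after a transcription start, were searched on both strands for the core GAANNTTC or TTCNNGAA, and for a longer element of 3 units in which NNGAA follows GAANNTTC, or the reverse, which contains the core. The table held 52 starts of 40 members. A core was present at 9 of these 52 starts, in DNAJA1, DNAJA4, DNAJB1, DNAJB4, DNAJB6, DNAJB7, DNAJC6 and DNAJC15, and at 13.5% of all 35116 starts. The element of 3 units was present in DNAJA1 and DNAJB6 and at 0.490% of all starts. The windows of DNAJB2, the member that changed most, and of the other 6 called members held neither. TGACGTCA, the cAMP and ATF element, was found in DNAJC27 only and at 1.85% of all starts, and the endoplasmic reticulum stress element in no member and at 0.0769% of all starts. The windows of DNAJB2 and of 4 members of the heat shock response that turned upward or stayed low are printed here from 250 bases before to 25 after the start, to show where these letters lie, with the core or the longer element in capitals.
DNAJB2, chr2:219279116-219279390, plus strand: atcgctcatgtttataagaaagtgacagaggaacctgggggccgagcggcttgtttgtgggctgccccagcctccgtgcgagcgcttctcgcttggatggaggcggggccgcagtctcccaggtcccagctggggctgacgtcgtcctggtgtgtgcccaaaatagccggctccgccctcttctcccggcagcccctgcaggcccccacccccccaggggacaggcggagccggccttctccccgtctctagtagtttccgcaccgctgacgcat
DNAJA1, chr9:33025023-33025297, plus strand: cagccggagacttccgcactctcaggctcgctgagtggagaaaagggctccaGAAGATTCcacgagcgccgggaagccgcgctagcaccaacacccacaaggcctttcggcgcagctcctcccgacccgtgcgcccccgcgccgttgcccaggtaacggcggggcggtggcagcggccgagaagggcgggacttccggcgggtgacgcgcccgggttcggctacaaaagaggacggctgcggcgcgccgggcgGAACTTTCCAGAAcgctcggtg
DNAJB1, chr19:14518373-14518647, minus strand: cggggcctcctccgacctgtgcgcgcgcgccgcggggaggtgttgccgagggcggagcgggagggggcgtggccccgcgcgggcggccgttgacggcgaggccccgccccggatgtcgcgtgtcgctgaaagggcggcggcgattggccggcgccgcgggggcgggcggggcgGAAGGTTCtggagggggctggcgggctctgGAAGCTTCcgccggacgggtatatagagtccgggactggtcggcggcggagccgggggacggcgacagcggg
DNAJB4, chr1:78004689-78004963, plus strand: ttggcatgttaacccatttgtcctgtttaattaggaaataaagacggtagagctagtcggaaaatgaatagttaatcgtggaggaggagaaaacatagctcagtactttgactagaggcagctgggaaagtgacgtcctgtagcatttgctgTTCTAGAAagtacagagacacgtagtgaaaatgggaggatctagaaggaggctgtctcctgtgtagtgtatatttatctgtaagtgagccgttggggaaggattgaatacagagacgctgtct
DNAJB6, chr7:157336754-157337028, plus strand: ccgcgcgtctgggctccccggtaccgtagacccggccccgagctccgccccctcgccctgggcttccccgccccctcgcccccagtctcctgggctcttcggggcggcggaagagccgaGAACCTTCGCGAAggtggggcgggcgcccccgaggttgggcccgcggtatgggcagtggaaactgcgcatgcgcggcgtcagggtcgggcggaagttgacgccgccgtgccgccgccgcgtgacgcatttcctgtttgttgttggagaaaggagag
Counted from the start, where the first transcribed base is 1 and the base before it is -1, DNAJA1 has a core at -198 to -191 and an element of 3 units at 4 to 16. DNAJB1 has a core at -77 to -70 and at -47 to -40 of this start, which is 1 of 3 starts in the table. DNAJB4 has its core at -98 to -91 of the shown start, and DNAJB6 its longer element at -131 to -119. These are matches of letters and say nothing of binding, and at the top EEDS dose the 4 members shown with a match had ratios from -0.39 for DNAJB1 to 1.44 for DNAJB4.

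Of the members that act in the nucleus or at the ribosome, none of 5 was called in either series (limma, 0 at an unadjusted p under 0.05). DNAJC8 and DNAJC17 belong to the splicing machinery and DNAJC9 is a histone chaperone, and their ratios at the top doses lay between -0.43 and 0.09. DNAJC2, which sits at the ribosome exit, read 10.89, 11.23, 11.14 and 12.06 with EEDS and 11.91, 11.25, 10.67 and 11.43 with helveticoside. It was thus 2.24-fold above its control at the top EEDS dose and below its control at every helveticoside dose, but the controls themselves differed by 1.01 on the log2 scale. Against the helveticoside control its ratio at the top EEDS dose was 0.15, and the slopes differed by -0.54 ± 0.24 (SE, unadjusted p = 0.0694, limma). For DNAJC21, which takes part in the maturation of ribosomal subunits, the controls differed by 1.35. The probe used for DNAJC21 and its other probe, which target different transcripts, disagreed in sign, with 0.65 and -0.72 at the top EEDS dose and 0.17 and -0.67 at the top helveticoside dose.

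Among the remaining cytosolic members, DNAJC12, a co-chaperone of the aromatic amino acid hydroxylases, was more than 2-fold above control at both top doses. It read 10.37, 11.40, 11.31 and 11.64 with EEDS and 10.83, 11.13, 11.34 and 11.85 with helveticoside. All 6 treated arrays were above their control, but neither slope passed the threshold (0.37 ± 0.10, SE, adjusted p = 0.0684, and 0.33 ± 0.10, adjusted p = 0.107, limma). The EEDS trend of DNAJC12 was called in 4 of the alternatives, among them both stricter filters on dim probes. DNAJC24, an enzyme cofactor in diphthamide synthesis, had ratios of 0.75 and 0.54 at the top doses, and DNAJC7, which binds both HSP70 and HSP90, had 0.83 and -0.10.

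Of the 7 members at vesicles, synapses and endosomes none was called, and DNAJC27 alone had an unadjusted p under 0.05, with EEDS. Its EEDS slope was 0.29 ± 0.08 (SE, adjusted p = 0.0697, limma). DNAJC27, a Rab-like GTPase with a J domain, read 7.89, 8.11, 8.19 and 8.82 with EEDS and 8.77, 9.08, 8.91 and 8.80 with helveticoside. Its slopes differed by -0.30 ± 0.12 (SE, unadjusted p = 0.0447, limma). This was the lowest p of such a difference among the members well above background on all arrays. The DNAJC27 controls themselves differed by 0.89 on the log2 scale. A second DNAJC27 probe read 6.62, 7.00, 6.85 and 7.52 with EEDS and 6.54, 6.66, 7.05 and 6.92 with helveticoside. Its ratios at the top doses were 0.90 and 0.39, against 0.94 and 0.02 for the probe used. The difference thus depended on the probe.

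The difference of the 2 slopes was called for none of the 44 members and for none of 19046 genes (limma), although 525 genes and 2 members, DNAJC15 and DNAJC27, had an unadjusted p under 0.05. Members called in only 1 series are therefore not shown to differ between the agents. The dose steps are matched by rank only, since the doses are in different units. Of the 36 members well above background on all arrays, 30 had the same sign of the ratio at both top doses. The same share over all genes was not computed, so this count cannot be read as particular to the members. The 2 controls differed by a median of 0.24 in these members and by more than 2-fold in 2 of them, DNAJC2 and DNAJC21, a share close to the 4.73% of all such genes.

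**Figure D4:**
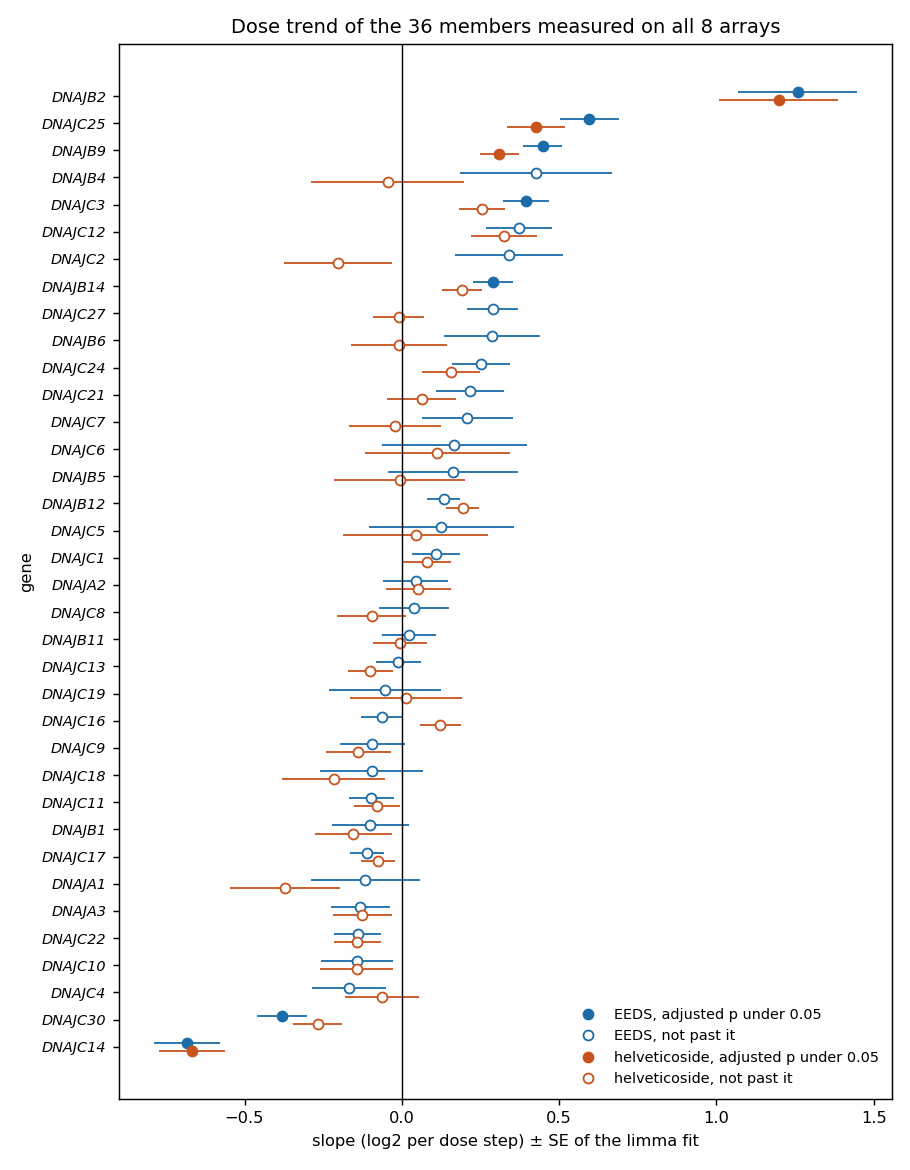
Slope per dose step (horizontal axis, log2 units; bars are ± 1 SE of the limma fit over 8 arrays) of the 36 members well above background on all 8 arrays (vertical axis, ordered by the EEDS slope; blue EEDS, orange helveticoside; filled points have an adjusted p under 0.05). DNAJB2 stands alone near 1.26 and 1.20, DNAJC14 lies lowest at -0.68 and -0.67, and most of the other bars reach or lie near 0.

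Counted by fold at each dose, 1 member was more than 2-fold above control at 1.25 μg/mL EEDS (DNAJC12, beside 4.22% of all genes), 3 were at the middle dose (DNAJB2, DNAJC25 and the dim DNAJC5G, beside 7.33%) and 7 were at the top dose (13.3%). The last were DNAJB2, DNAJB4, DNAJB9, DNAJC2, DNAJC3, DNAJC12 and DNAJC25, which is 15.9% of the members. More than 2-fold below control were 2 members at the lowest EEDS dose (3.66% of all genes), 2 at the middle (8.47%) and 3 at the top (14.5%). The dim DNAJA4, which has no measurable fold, is counted at the lowest and the top dose, which leaves DNAJC14 at the lowest dose, DNAJA1 and DNAJC14 at the middle dose and DNAJC14 and DNAJC30 at the top dose. With helveticoside, 2 members were above at 3.75 nM (3.38% of all genes), 2 at 15 nM (7.08%) and 4 at 60 nM (10.8%), of which DNAJB2, DNAJC12 and DNAJC25 at 60 nM and DNAJB2 at 15 nM were well above background on all arrays. Below control were 1 member at 3.75 nM (4.3% of all genes), 5 at 15 nM (8.06%) and 4 at 60 nM (12.8%), but the 1 at 3.75 nM was the dim DNAJA4, which was not well above background on any array. At 15 nM the measured ones were DNAJA1, DNAJC2 and DNAJC14 and at 60 nM DNAJA1 and DNAJC14, and DNAJA4 and DNAJC5B, which have no measurable fold, made up the rest. The median ratio of the 36 well-measured members was 0.20 at the top EEDS dose and -0.03 at the top helveticoside dose, and 20 and 18 of them were above control. Over the 11498 genes measured equally well the medians were -0.01 and 0.02, and their share above control was not computed.

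The 8 members that were not well above background on all arrays were DNAJA4, DNAJB7, DNAJB8, DNAJB13, DNAJC5B, DNAJC5G, DNAJC15 and DNAJC28. No fold can be given for DNAJA4, DNAJB7, DNAJB8, DNAJC5B, DNAJC15 and DNAJC28, which were not well above background on any array. DNAJC5G, a relative of the cysteine string protein, was well above background only at 5 μg/mL EEDS and 15 nM helveticoside, where it was at least 1.33-fold and at least 1.53-fold higher than its controls. Its ratio at 60 nM has no fold, because neither array was well above background. DNAJB13, a protein of the sperm tail, was at least 1.11-fold higher at 60 nM helveticoside.

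Where 2 or more probes of a member were well above background at both ends of a series, their ratios at the top dose could be compared. This was possible for 11 members with EEDS and 9 with helveticoside. The probes were more than 2-fold apart for 2 members with EEDS, DNAJC21 and DNAJC30, and for 1 with helveticoside, DNAJC30. Opposite signs were seen in DNAJC11 and DNAJC21 in both series. The 3 probes of DNAJB6 gave 0.64 to 1.01 with EEDS and 0.10 to 0.93 with helveticoside, with the highest helveticoside value from a probe for another transcript than that of the other probes. The genome also holds pseudogenes of DNAJA1, DNAJB6, DNAJC8 and DNAJC19, and whether the probes of these members read them was not tested.

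The partners of the DNAJ proteins were followed in a list of 39 genes, of which 38 were measured. With EEDS, 3 rose (BAG4, GRPEL2 and HSF2) and 6 fell, and with helveticoside 1 rose (GRPEL2) and 5 fell. Of all genes, 7.27% rose and 7.86% fell with EEDS, and 5.46% rose and 5.79% fell with helveticoside. Of the falls, 4 were called with both agents, in HSPA2, HSPA8, ST13 and AHSA1. The HSP70 family, which receives the clients, held 4 of the falls with EEDS (HSPA1L, HSPA2, HSPA8 and HSPA12A) and 3 with helveticoside (HSPA1A, HSPA2 and HSPA8) among 12 genes. HSPA1L was well above background on only 4 arrays, none of them at a top dose, and HSPA12B on none. The other 10 genes had a median ratio of -1.23 and -0.93 at the top doses, with wide ranges. These ran from -4.32 to 1.48 with EEDS and from -4.16 to 1.54 with helveticoside. HSPA6, HSPA9, HSPA13 and HSPA14 lay above control at both top doses without a called trend, and the rest lay under control. HSPA8, the constitutive cytosolic HSP70, read 14.91, 12.40, 11.21 and 10.60 with EEDS and 14.68, 13.55, 11.46 and 10.53 with helveticoside (adjusted p = 0.0185 and 0.0219, limma). HSPA2, a testis-enriched HSP70, ended at ratios of -3.02 and -3.20 (adjusted p = 0.0284 and 0.0272, limma). HSPA1A and HSPA1B are nearly identical in sequence, so their probes can share signal, and their ratios at the top doses were between -3.09 and -2.08.

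BiP, encoded by HSPA5 and the partner of DNAJB9 and DNAJC3, was not called in either series, with ratios of -1.31 and -1.09 at the top doses (adjusted p = 0.107 and 0.131, limma). Its values lay under control on all 6 treated arrays while those of DNAJB9 lay above. Nucleotide exchange factors promote the exchange of ADP for ATP on HSP70. Among the 13 measured, GRPEL2 of the mitochondria rose with both agents (ratios of 1.08 and 1.14 at the top doses, adjusted p = 0.0370 and 0.0323, limma). Of the 6 other co-chaperones of HSP70 and HSP90, ST13 and AHSA1 fell with both agents. ST13, which stabilizes the ADP-bound state of HSP70, ended at -0.96 and -1.21 (adjusted p = 0.0284 and 0.0273, limma), and AHSA1, an activator of HSP90, at -1.34 and -1.29 (adjusted p = 0.0237 and 0.0280, limma). None of the 4 J-domain proteins with other names was called, although 2 with EEDS and 1 with helveticoside had an unadjusted p under 0.05 (limma). They had ratios of -0.23 to 0.78 at the top doses. HSF1, the main heat shock factor, had ratios of -0.48 and -0.01.

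**Figure D5:**
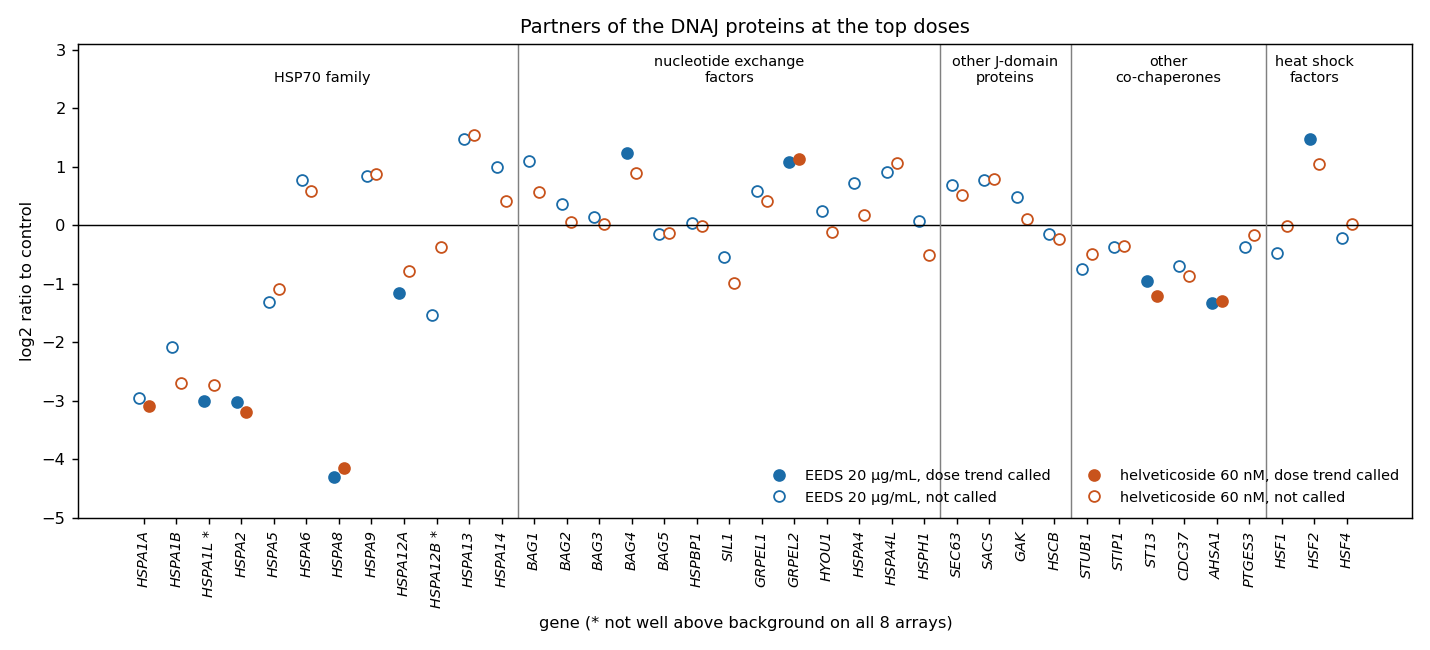
Log2 ratio to control at the top dose (vertical axis; blue 20 μg/mL EEDS, orange 60 nM helveticoside) of the 38 measured partners of the DNAJ proteins (horizontal axis, grouped by role; filled points have a called dose trend; 1 array per point, no error bar). HSPA8 lies lowest at -4.32 and -4.16, and the nucleotide exchange factors lie mostly near or above 0.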

How the data were processed

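The authors deposited, for each of the 8 arrays, the scanner software's intensity per spot (median signal, local background and background-subtracted processed signal) and its spot calls, and a table of intensity values that, from its values, holds median signal minus background, quantile-normalized within each series. The members and all lists were chosen with earlier results of these data known. After removal of control and outlier spots, each probe took the mean processed signal of its spots. All 8 arrays were then quantile-normalized together and log2-transformed (log2 of the deposited intensity). Of 34127 probes, 22 had only outlier spots on an array and were dropped, and 24812 matched a gene of RefSeq (GRCh38.p14). For 4797 genes with several probes the brightest was used. Genes whose scanned median reached 1.4 times the background on at least 1 of the 4 arrays of a series were kept, 19046 for EEDS and 19056 for helveticoside. Where only the treated or the control array of a ratio was well above background, the fold is a bound: the dimmer side was set to the higher of its own level and the lowest level well above background on its array.

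Trends were fitted with limma 3.58.1 (R 4.3.3, statmod 1.5.0; trend and robust estimation) with Benjamini-Hochberg adjustment over all genes at 0.05. On simulated EEDS data with 200 changed of 19046 genes, 102 were called, 96 of them changed. Of the simulated slopes of 1, 60% were found, and of those of 0.5, 36%. In the real data 2881 of 19046 genes were called with EEDS, so the simulated setting differs. These percentages therefore do not give the share of real trends found. The members that the naming rule selects have a called trend, a ratio over 2-fold at both top doses, a ratio over 4-fold at either, or probes that disagree in sign by over 2-fold. Of the partners it selects those called in both series. All other genes described, among them DNAJA1, DNAJB4, DNAJB6, DNAJC2 and DNAJC27, were chosen after their values were seen. Alternatives were other background corrections, scalings, filters and probe rules, the deposited table, fewer arrays, and the control of the other series. Tables were made with Python 3.11.15 and pandas 2.3.3. Probe sequences and array batches other than the series were not analysed here.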

Additional observations from a re-analysis of the deposited data

How the results depend on the processing

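With the scanned signal, normexp correction, scaling to the 75th percentile, normalization within each series, no filter, a well-above-background filter on 1 of 4 arrays, the mean of all probes, or eBayes without trend and robust estimation, 7 or 8 members were called with EEDS and 3 or 4 with helveticoside, against 7 and 4. The deposited table gave 7 and 2, and a filter on all 8 arrays, chosen after seeing the data, gave 8 and 4. Against the reported calls, DNAJB14 (EEDS) and DNAJB9 and DNAJC25 (helveticoside) were lost in the deposited table. The helveticoside call of DNAJC25 was also lost with the scanned signal, normexp correction, scaling to the 75th percentile and normalization within each series. With the mean of all probes, DNAJC14 was lost in both series and DNAJC30 was gained with helveticoside. The dim DNAJC15 was gained with EEDS under within-series normalization, the deposited table and the mean of all probes. Fits with fewer arrays called no member and no gene at all: 0 for EEDS and 0 for helveticoside with the 4 arrays of one series, without the lowest doses, without the middle doses and without the top doses, although 9 to 13 members for EEDS and 4 to 11 for helveticoside had an unadjusted p under 0.05 there. For the 10 members named by their trend or ratio and 10 others described (DNAJA1, DNAJB1, DNAJB4, DNAJB5, DNAJB6, DNAJC2, DNAJC5, DNAJC6, DNAJC21 and DNAJC27), no called slope and no ratio past 2-fold at a top dose changed sign under the alternatives run. DNAJC2 was 1.17 above control at the top EEDS dose and 0.15 with the control of the other series. At the top helveticoside dose, the 4 members more than 2-fold higher became 2 with the scanned signal, 2 with normexp correction and 1 in the deposited table, and the 4 more than 2-fold lower became 1, 1 and 2, and 2 under either well-above-background filter. With the control of the other series, 5 instead of 3 members were more than 2-fold lower at the top EEDS dose. The median ratio of all 44 members at the top EEDS dose, 0.16, became 0.034 with scaling to the 75th percentile, which moved the median of all genes from 0.021 to -0.36 (and from -0.0040 to -0.18 at the top helveticoside dose), and 0.065 in the deposited table. The cause of these differences was not tested. Fits with fewer arrays have fewer residual degrees of freedom by design, but whether this lost the calls was not tested. Spots of one probe on an array varied with an SD of 0.07 to 0.09 log2 units, which does not cover the spread between cultures, and no value here does. No paired analysis was possible because the labels give no replicate numbers that the groups share.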
